A study of Mus musculus with 26 samples.

Results

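The genes that write, copy and erase DNA methylation, together with the core subunits of Polycomb repressive complex 2 (PRC2), were followed across mouse pineoblastoma (PB) and normal cerebellum. The members were named by symbol as Dnmt1, Dnmt3a, Dnmt3b, Uhrf1, Tet1, Tet2, Tet3, Ezh2, Suz12 and Eed. All 10 were found in both array tables, among 19938 genes on Mouse Gene ST version 1.0 arrays and 22180 genes on version 2.0 arrays. The rule uses no expression value, although the list was drawn up with earlier results of these data known.

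RNA of snap-frozen tumors and of normal cerebellum was hybridized to 26 arrays, 1 sample per array. All tumors came from mice with a WAP-Cre transgene, in which the mammary WAP (whey acidic protein) promoter drives Cre and which is also expressed in the pineal gland, an activity thought likely to come from the site of integration. On version 1.0 arrays were 5 Rb/p53-mutated PBs (WAP-Cre with both Rb alleles flox/flox and p53 lsl_R270H/flox, so that Cre turns on a point mutant of p53 from one allele and deletes the other), 11 Rb/p53-deleted PBs (PB1 to PB11, WAP-Cre with Rb and p53 both flox/flox) and 3 samples of Normal cerebellum. On version 2.0 arrays were 3 Rb/Dicer1/p53-deleted PBs (WAP-Cre with floxed Dicer1, Rb and p53), 3 Dicer1/p53-deleted PBs (WAP-Cre with floxed Dicer1 and p53, where Cre removes the exon for the second RNase III domain of Dicer1) and Rb/p53-deleted PB12. The labels give no age per array and no genotype for the cerebellum donors, the mice were of mixed background, and no normal pineal gland was on the arrays, so the reference is a different brain region. Nothing says that the samples of a group share a litter or a day, and p-values measure only the spread between these samples.

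DNA methylation is copied after replication by Dnmt1, which is brought to hemimethylated DNA by Uhrf1, and is laid down anew by Dnmt3a and Dnmt3b. The Tet enzymes oxidize 5-methylcytosine, which opens the way to its removal. PRC2 methylates histone H3 at lysine 27 through its catalytic subunit Ezh2, which needs Suz12 and Eed, and the mark is bound by PRC1. Several of these genes are known targets of E2F transcription factors, which Rb holds in check.

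Because Rb and the E2F factors meet at promoters, the RefSeq promoter windows of the members (GRCm38.p6, 250 bases before to 50 after each start, 15 windows for 10 genes) were searched on both strands for an E2F site, spelled TTTCCCGC, TTTGGCGC, TTTCGCGC or TTTGCCGC. Exactly 4 windows held a match, 1 each for Uhrf1, Dnmt1, Ezh2 and Suz12, against 2.26% of the 32851 windows of all genes. These 4 windows are rich in CpG, and among the 3837 windows of all genes with at least 30 CpG dinucleotides the share was 5.06%. Of the 8 member windows with at least 30 CpG dinucleotides, 4 held a match. The 4 are shown because they hold a match, and they belong to maintenance methylation and PRC2 genes. The other windows of Dnmt1 and Uhrf1 and the window of the PRC2 gene Eed held none. Matching letters are in capitals and the gene strand is read 5′ to 3′. The first lies at chr17:56304063-56304362 (plus strand), followed by chr9:20952574-20952873, chr6:47594981-47595280 (both minus strand) and chr11:79992856-79993155 (plus strand).
Uhrf1: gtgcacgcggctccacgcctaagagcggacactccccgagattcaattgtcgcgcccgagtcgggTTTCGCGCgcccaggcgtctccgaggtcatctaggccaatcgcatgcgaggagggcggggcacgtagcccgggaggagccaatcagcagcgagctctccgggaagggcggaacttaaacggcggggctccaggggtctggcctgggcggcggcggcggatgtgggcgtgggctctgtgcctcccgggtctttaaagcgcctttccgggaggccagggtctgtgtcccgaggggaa
Dnmt1: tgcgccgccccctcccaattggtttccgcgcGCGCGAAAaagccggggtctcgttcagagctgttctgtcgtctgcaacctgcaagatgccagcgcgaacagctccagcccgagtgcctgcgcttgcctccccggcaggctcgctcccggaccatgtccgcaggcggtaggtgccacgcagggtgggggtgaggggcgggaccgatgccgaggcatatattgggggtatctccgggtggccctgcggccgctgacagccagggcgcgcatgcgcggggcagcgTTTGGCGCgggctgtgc
Ezh2: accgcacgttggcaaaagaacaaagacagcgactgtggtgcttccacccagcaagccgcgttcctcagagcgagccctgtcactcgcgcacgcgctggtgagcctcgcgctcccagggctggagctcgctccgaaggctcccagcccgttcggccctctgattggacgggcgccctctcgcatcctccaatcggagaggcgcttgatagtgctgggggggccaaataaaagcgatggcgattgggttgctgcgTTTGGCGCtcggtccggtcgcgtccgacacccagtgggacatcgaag
Suz12: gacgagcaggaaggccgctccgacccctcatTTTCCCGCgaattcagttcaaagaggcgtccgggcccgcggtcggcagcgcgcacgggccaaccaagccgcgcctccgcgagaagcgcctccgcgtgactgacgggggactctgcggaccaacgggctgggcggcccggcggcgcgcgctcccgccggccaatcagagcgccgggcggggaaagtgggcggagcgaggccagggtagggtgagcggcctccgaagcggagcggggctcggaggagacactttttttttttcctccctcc
The Dnmt1 window holds 2 matches and each of the others 1. A match is a description of letters, and no binding was measured here.

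All levels below are log2 values, so a difference of 1 is a 2-fold change. Version 1.0 values were quantile-normalized over the 19 arrays, since the deposited arrays did not share a scale. Rb/p53-mutated arrays had medians between 7.04 and 7.12, those of PB1 to PB10 lay between 7.90 and 7.97, and PB11 and cerebellum, at 7.95 to 8.01, also had a wider spread. PB11 and cerebellum therefore look like an array set of their own, and the differences of Rb/p53-deleted PBs from cerebellum are also given with that set as a block, which compares PB11 with cerebellum. Version 2.0 values are as deposited. Of the pineal markers, Crx, Otx2, Tph1, Chrna3 and Lhx4 were higher in both tumor genotypes than in cerebellum, by 2.08 to 5.77, and Aanat was not past the threshold in either. Granule neuron, Purkinje cell, oligodendrocyte and astrocyte markers were lower in Rb/p53-deleted PBs for all their measured genes (5, 4, 4 and 5), and with the block for all but the astrocyte marker Gfap. The same 5 pineal markers were higher with the block, by 2.19 to 6.19. Rb1 averaged 10.37 in Rb/p53-deleted PBs and 10.03 in cerebellum, while in Rb/Dicer1/p53-deleted PBs it was 8.30 to 8.79, against 9.52 to 9.97 in Dicer1/p53-deleted PBs. These values summarize the whole gene, of which the floxed exons are only a part, so they do not check the labels.

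After normalization, the whole DNA methylation and PRC2 set was higher in Rb/p53-deleted PBs than in cerebellum, with Uhrf1 and Ezh2 at the top. With the array set as a block 6 of the 10 stayed called, and Dnmt3a, Dnmt3b, Tet1 and Tet3 did not. Uhrf1 was 10.97-fold higher, Ezh2 3.58-fold, Dnmt1 3.12-fold and Tet2 2.39-fold, while Dnmt3b was only 1.16-fold higher. All 10 members passed the FDR of 0.01 upward, where 25.0% of all 19938 genes were called higher and 27.7% lower. The median difference of the members was 1.05, against 0.01 over all genes. In bulk samples, fewer cells of a type and less RNA per cell cannot be told apart.

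Uhrf1, the reader that recruits Dnmt1 to newly replicated DNA, ranged from 10.03 through a median of 10.45 to 10.62 in the 11 Rb/p53-deleted PBs, against 7.22, 6.74 and 6.84 in cerebellum. The lowest tumor was at 10.03 and the highest cerebellum sample at 7.22. The share of all genes without overlap was not counted for this comparison. The difference was 3.46 (SE 0.12, limma adjusted p = 3.89e-13), above that of 99.3% of all genes.

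Dnmt1, the maintenance methyltransferase, lay between 11.12 and 11.59 with a median of 11.36 in the deleted tumors, against 9.71, 9.72 and 9.72 in cerebellum. The tumors spanned 0.47. The difference was 1.64 (SE 0.08, adjusted p = 1.3e-11). The Uhrf1 and Dnmt1 windows printed above both hold an E2F site, which the expression data neither used nor tested.

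Dnmt3a and Dnmt3b, the de novo methyltransferases, were nearer to cerebellum. Dnmt3a ranged from 9.49 through 9.80 to 10.57 in Rb/p53-deleted PBs, against 9.25, 9.20 and 9.21 in cerebellum, with PB2 the highest and PB11 the lowest. Its difference was 0.62 (SE 0.16, adjusted p = 0.00262). Dnmt3b ranged from 7.53 through 7.62 to 7.76 in the tumors, against 7.44, 7.39 and 7.42 in cerebellum, a difference of 0.22 (SE 0.06, adjusted p = 0.00746). The gap for Dnmt3b was narrow, with its lowest tumor at 7.53 and its highest cerebellum sample at 7.44. Both calls ended when any 1 cerebellum sample was left out, with an adjusted p of 0.0113 to 0.0136 for Dnmt3a and 0.0214 to 0.0386 for Dnmt3b.

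The 3 Tet dioxygenases were all higher, but only Tet2 kept its call with the array set as a block (Tet1 at 0.40, adjusted p = 0.0732, and Tet3 at 0.27, adjusted p = 0.0618). Tet2 ranged from 9.64 through 10.32 to 10.67 in deleted tumors, against 8.94, 9.02 and 9.08 in cerebellum, a difference of 1.25 (SE 0.14, adjusted p = 1.03e-06). Tet1 ranged from 10.43 through 11.03 to 11.37 in the tumors, against 9.99, 10.03 and 10.09 in cerebellum (difference 0.94, adjusted p = 1.18e-05). Tet3 ranged from 9.53 through 10.12 to 10.25 in the tumors, against 9.27, 9.30 and 9.20 in cerebellum (difference 0.82, adjusted p = 1.05e-05). PB11 was the lowest tumor for each of the 3 genes. The other Tet1 transcript clusters gave differences of 1.04 and 1.03, and the other Tet3 cluster 0.45 (adjusted p = 0.000856).

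By the cluster used for each gene, the PRC2 core was higher in all its subunits after normalization. On deposited values Suz12 was 0.75 higher and Eed 0.41, and Eed lost its call (limma adjusted p = 0.0161). Ezh2, the methyltransferase, ranged from 11.57 through 12.18 to 12.28 in the tumors, against 10.27, 10.28 and 10.27 in cerebellum, and the difference was 1.84 (SE 0.11, adjusted p = 3.67e-10). PB11 alone was below 12.03. Suz12, which holds the complex together, ranged from 11.08 through 11.16 to 11.33 in the tumors, against 9.95, 9.99 and 10.09 in cerebellum (difference 1.17, adjusted p = 1.49e-10). Eed, which binds the trimethylated histone, ranged from 9.61 through 9.69 to 9.99 in the tumors, against 8.99, 9.13 and 9.04 in cerebellum (difference 0.71, adjusted p = 2.88e-06). The other Eed cluster, a much dimmer probe set, differed by -0.05 (adjusted p = 0.756), so the 2 Eed clusters disagree.

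PB11 was the only tumor that looked like part of an array set with the cerebellum samples, which no label states. With that set as a block, which leaves PB11 as the tumor compared, 6 of the 10 members remained past the threshold, where 14.4% of all genes were called higher and 15.4% lower. Uhrf1 was then 3.10 higher, Dnmt1 1.58, Ezh2 1.30, Suz12 1.10, Eed 0.93 and Tet2 0.63 (adjusted p = 0.00687). Besides Tet1 and Tet3, Dnmt3a (0.27, adjusted p = 0.463) and Dnmt3b (0.11, 0.434) were not past it. Without PB11, all 10 members were called. PB11 also had the highest mean of granule neuron markers (8.37, against 7.31 to 7.66 in PB1 to PB10). The same held for Purkinje cell markers (7.79, against 6.41 to 6.81) and astrocyte markers (8.84). It did not hold for oligodendrocyte markers (7.65, against 7.85 in PB10). The part of cerebellar tissue in the PB11 values was not tested.

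**Figure D1:**
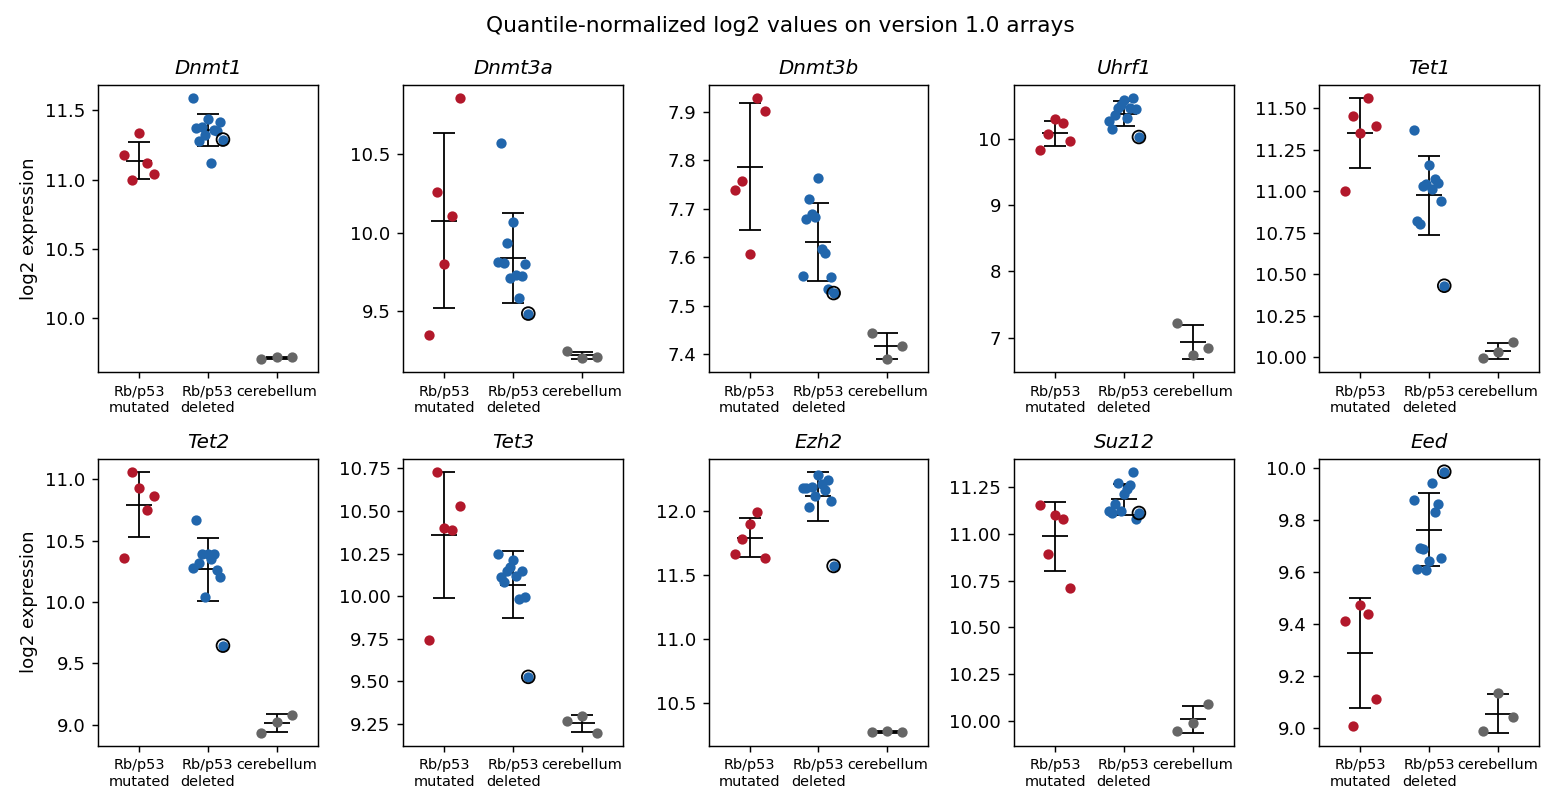
Quantile-normalized log2 expression (y axis, its own range in each panel) of the 10 members on version 1.0 arrays, with 1 point per sample and bars for mean ± SD, in Rb/p53-mutated PBs (n = 5), Rb/p53-deleted PBs (n = 11, PB11 circled) and cerebellum (n = 3). Uhrf1, Dnmt1, Ezh2 and Suz12 show wide gaps between tumors and cerebellum, and only for Eed do mutated tumors reach the cerebellum values.

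Rb/p53-mutated PBs were set against the same cerebellum samples, and 8 of 10 members were called higher and none lower, where 23.8% of all genes were higher and 27.5% lower. No mutated tumor shared the apparent array set of the cerebellum samples, so array set and tumor cannot be told apart here and no block could be fitted. Uhrf1 was 9.84, 10.08, 10.30, 10.24 and 9.97 in mutated tumors, against 7.22, 6.74 and 6.84 in cerebellum, an 8.92-fold difference (3.16, SE 0.14, adjusted p = 7.67e-08). Tet2 was 10.36, 11.06, 10.93, 10.75 and 10.86 in mutated tumors, against 8.94, 9.02 and 9.08 in cerebellum (1.78, adjusted p = 4.55e-06). All mutated tumors were above all cerebellum samples for both genes, and the share of all genes without overlap was not counted.

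Among the other members, Ezh2 was 1.52 higher in mutated tumors, Dnmt1 1.42, Tet1 1.31, Tet3 1.10, Suz12 0.98 and Dnmt3b 0.37 (adjusted p = 0.00535). Dnmt3a was 9.35, 10.26, 9.81, 10.11 and 10.86 in mutated tumors, a spread that ran from just above cerebellum to the highest value on these arrays, and its difference of 0.86 (SE 0.28) missed the threshold with an adjusted p of 0.0211. Eed was 9.41, 9.01, 9.47, 9.44 and 9.11 in mutated tumors, against 8.99, 9.13 and 9.04 in cerebellum. These groups overlapped, and the difference was 0.23 with a 95% interval of -0.07 to 0.53 (adjusted p = 0.123). The other Eed cluster differed by -0.39 (adjusted p = 0.0164). The Dnmt3b call ended without any 1 cerebellum sample (adjusted p = 0.0191 to 0.0259) or without mutated tumor 4 (0.0114), and Dnmt3a passed without mutated tumor 1 (1.04, adjusted p = 0.00244).

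The scale of the mutated arrays bears on these counts. On the deposited values the median gene was 0.92 lower in mutated tumors than in cerebellum. Of all calls 6.21% were upward, against 46.3% after normalization. On that scale 5.01% of all genes were called higher and 75.6% lower. Of the members 5 were called, with Uhrf1 (2.30), Tet2 (0.67) and Ezh2 (0.44) higher and Dnmt3b (-0.49) and Eed (-0.93) lower. In Rb/p53-deleted PBs 38.2% of calls were upward on deposited values, against 47.4% after normalization. There 8 members were called higher, all but Dnmt3a and Eed, where 19.7% of all genes were higher and 31.9% lower.

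**Figure D2:**
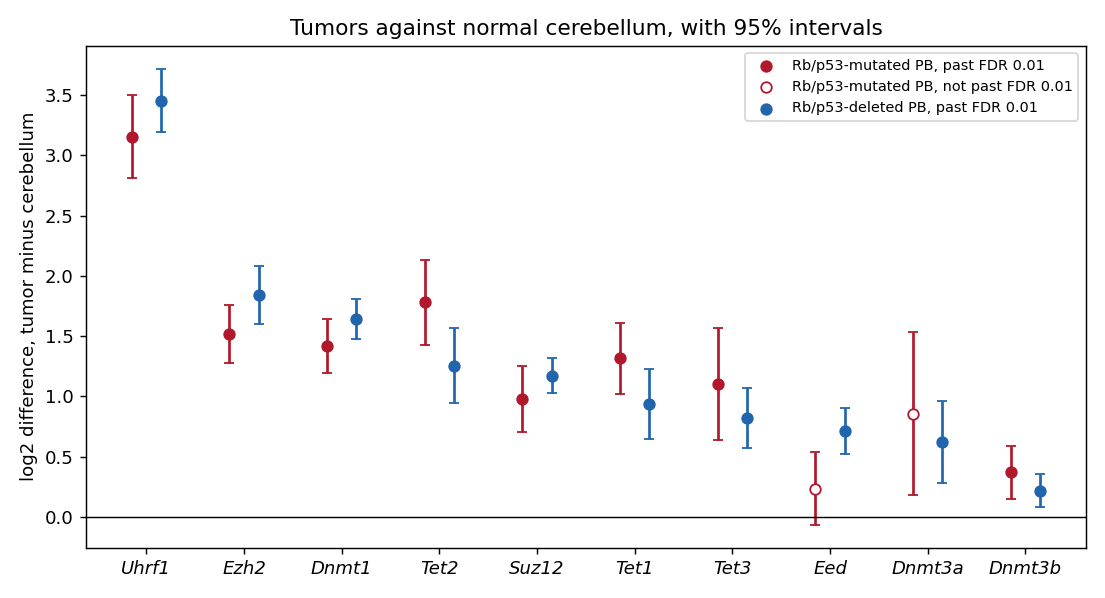
Log2 difference from cerebellum (y axis) for each member (x axis, ordered by the difference in Rb/p53-deleted PBs), with 95% intervals of the limma fit; filled points passed the FDR of 0.01 and open points did not. Uhrf1 stands at 3.16 in mutated and 3.46 in deleted tumors, and the open points are Eed and Dnmt3a in mutated tumors.

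Partner genes moved with the members to different extents in Rb/p53-deleted PBs. Of 13 measured readers and cofactors of DNA methylation, 6 were higher and 3 lower, with a median difference of 0.36. Cdca7 and Hells, whose products form a remodeling complex needed for DNA methylation, were 13.0-fold (3.70) and 10.9-fold (3.45) higher than in cerebellum, sizes close to that of Uhrf1. Uhrf2, the paralog of Uhrf1, was 0.80 higher, and Zbtb38, a methyl-CpG binder, was 0.69 lower. With the array set as a block 4 were higher and 3 lower, with Cdca7 at 3.86, Hells at 3.60 and Zbtb38 at -0.96, and Uhrf2 (0.54, adjusted p = 0.0213) lost its call. Of 9 demethylation partners 7 were higher and none lower (median 0.95), with Gadd45b at 1.72, Gadd45g at 1.56 and Idh2, which makes the Tet cofactor 2-oxoglutarate, at 1.56. With the block 6 were higher, and Gadd45g (1.62, adjusted p = 0.0103) lost its call. In mutated tumors 5 readers and cofactors were higher and 3 lower, with Cdca7 at 3.51 and Hells at 3.15, and 4 demethylation partners were higher and none lower.

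Of 8 measured PRC2 partners, 5 were higher and 2 lower in deleted tumors (median 0.43). With the block 3 were higher and 2 lower (median 0.12). Phf19, which brings PRC2 to its targets, was 1.66 higher, and 1.52 with the block. Ezh1, the alternative catalytic subunit typical of non-dividing cells, was 9.47 in deleted tumors and 10.41 in cerebellum, a difference of -0.93 (adjusted p = 1.37e-06), and -0.95 with the block (adjusted p = 0.00114). It fell by 0.91 in mutated tumors. Ezh1 and Ezh2 therefore differed from cerebellum in opposite directions in both tumor genotypes.

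Of 21 PRC1 subunits, 10 were higher and 4 lower in deleted tumors (median 0.24), with Cbx2 at 1.39, Phc1 at 1.38 and Bcor at 1.28. With the block 7 were higher and 1 lower, these 3 among the higher ones at 1.00, 1.02 and 1.37. In mutated tumors 11 were higher and 3 lower, with Phc1 at 1.83 and Cbx2 at 1.67. Among genes that oppose Polycomb silencing, 7 of 12 were higher and none lower in deleted tumors, and 9 of 12 in mutated tumors, with Asxl2 at 1.84 in mutated and 1.09 in deleted tumors. With the block only 2 of the 12 were higher in deleted tumors (Asxl1 at 0.84 and Bap1 at 0.52), Kmt2c was lower (-0.53), and Asxl2 lost its call (0.84, adjusted p = 0.018).

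Genes that these marks are known to silence did not move as a block. Of 19 germline genes kept silent by DNA methylation, 2 were higher and 4 lower in deleted tumors, with Hormad1 at 0.86 and Sycp1 at -1.09. With the block none was higher and 3 were lower, Hormad1 (0.22, adjusted p = 0.181) lost its call and Sycp1 turned sign (0.13, adjusted p = 0.711). In mutated tumors 2 were higher, Hormad1 among them at 1.34, and 5 lower. Of 37 Hox genes, classic Polycomb targets, 7 were higher and 5 lower in deleted tumors, a share below the 25.0% of all genes upward. Their mean in cerebellum was 6.605 to 6.624, also below that quartile. The 5 largest differences all lay in the Hoxc cluster, with Hoxc5 at 3.44, Hoxc8 at 2.69, Hoxc6 at 2.04, Hoxc4 at 1.74 and Hoxc9 at 1.53. With the block these 5 were the Hox genes called higher, by 1.51 to 3.09, and none was lower. Hoxc5 ranged from 9.03 to 10.12 in deleted tumors and from 6.06 to 6.16 in cerebellum. In mutated tumors 8 Hox genes were higher and 6 lower, with Hoxc8 at 3.47 and Hoxc5 at 3.35.

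Dividing cells use many of these genes, so proliferation genes are given beside them. All 9 mitotic genes and all 12 S-phase genes were higher in deleted tumors, with medians of 4.84 and 2.81. The mean of the mitotic genes was 11.25 to 11.86 in tumors, against 6.69 to 7.23 in cerebellum. Mki67 was 5.15 higher, Ccna2 5.18 and Mcm6 4.29. With the block all 9 and all 12 were again higher, with medians of 4.26 and 2.89. The part of cell division in the member differences was not tested.

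The tumors with mutant p53 had a lower Eed and PRC2 level and a higher Tet2 level than the p53-deleted tumors after normalization. Of the members, 3 were called higher (Tet2, Tet1 and Dnmt3b) and 5 lower (Eed, Ezh2, Uhrf1, Dnmt1 and Suz12) at an FDR of 0.05, while 20.7% of all genes were higher and 25.9% lower. The median member difference was -0.02, against -0.04 for all genes. The differences ran from -0.48 to 0.53. The genotypes were also on arrays of different deposited scale, so array set and genotype cannot be told apart.

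Among the members, Eed had the largest downward difference. It was 9.41, 9.01, 9.47, 9.44 and 9.11 in Rb/p53-mutated PBs and between 9.61 and 9.99 (median 9.69) in Rb/p53-deleted PBs, so that all 5 mutated tumors lay below all 11 deleted tumors. The difference was -0.48 (SE 0.09, adjusted p = 0.000343), and the other Eed cluster fell by 0.34 (adjusted p = 0.014). The share of all genes without overlap was not counted between these tumor groups, so this separation is only described.

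Tet2 was 10.36, 11.06, 10.93, 10.75 and 10.86 in mutated tumors, against 9.64 to 10.67 (median 10.32) in deleted tumors. It was 1.44-fold higher (0.53, SE 0.13, adjusted p = 0.00351), with 4 of the 5 mutated tumors above all deleted ones. Tet1 was 0.38 higher (adjusted p = 0.0145) by its brightest cluster, whereas its other clusters differed by 0.02 and -0.05 (adjusted p = 0.906 and 0.751). Tet3 was 0.29 higher without passing the threshold (adjusted p = 0.0803, 95% interval 0.01 to 0.57), and its other cluster was 0.44 higher (adjusted p = 0.00503).

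Ezh2 was 11.66, 11.78, 11.90, 11.99 and 11.63 in mutated tumors, against 11.57 to 12.28 (median 12.18) in deleted tumors, where PB11 alone lay below 12.03. The difference was -0.32 (SE 0.10, adjusted p = 0.0117). Uhrf1 differed by -0.30 (adjusted p = 0.0181), Dnmt1 by -0.22 (0.0156) and Suz12 by -0.20 (0.031), all with overlapping groups. Dnmt3b was 0.16 higher (adjusted p = 0.0481) and lost its call without PB11 (adjusted p = 0.056) or without mutated tumor 1, 2, 4 or 5 (0.0556 to 0.148). Dnmt3a differed by 0.24 with an interval of -0.17 to 0.64.

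Without mutated tumor 2 the calls of Dnmt1 (adjusted p = 0.0537) and Suz12 (0.0829) also ended, and without mutated tumor 5 those of Uhrf1 (0.0522) and Suz12 (0.128), which left 5 members called each time. Without mutated tumor 1 Uhrf1 was lost (0.0639) and Tet3 gained (0.44 higher, adjusted p = 0.00328). Eed, Ezh2, Tet1 and Tet2 kept their calls without any 1 mutated tumor or PB11. Centring the deposited values on array medians left 5, with Dnmt1, Ezh2, Suz12 and Dnmt3b lost and Tet3 gained. On deposited values the median gene was 0.86 lower in mutated tumors, and 0.793% of all calls were upward against 44.4% after normalization. All 10 members were lower, from -0.26 for Tet2 to -1.34 for Eed, where 92.3% of all genes were called lower and 0.737% higher. Relative to that median gene, Eed, Uhrf1, Dnmt1, Ezh2 and Suz12 still lay below and Tet2, Tet1, Tet3, Dnmt3a and Dnmt3b above.

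**Figure D3:**
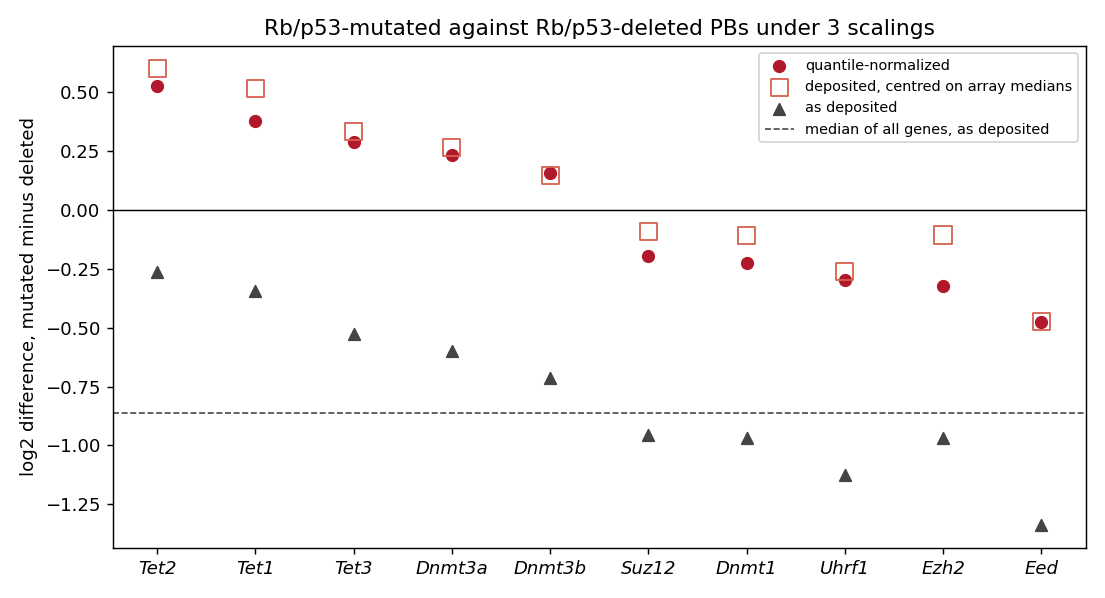
Log2 difference of Rb/p53-mutated minus Rb/p53-deleted PBs (y axis) for each member (x axis) after quantile normalization, after centring on array medians, and as deposited; the dashed line is the median gene of the deposited values. Tet2 leads at 0.53 and Eed is last at -0.48 after normalization, and all deposited differences are below 0.

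In the same comparison 9 of 12 S-phase genes and 6 of 9 mitotic genes were lower in mutated tumors and none higher, with medians of -0.43 and -0.36. Mean S-phase levels were 10.57 to 10.86 in mutated tumors and 11.04 to 11.24 in deleted tumors. Ccne2 (-0.95), Fen1 (-0.93) and Rrm2 (-0.78) changed most. Ezh2, Uhrf1 and Dnmt1 thus had lower values in the same tumors, and the part of cell division in this was not tested. Of 6 microglia markers, 4 were higher (C1qb by 1.12) and 1 lower. The microglia mean was 8.89 to 9.47 in mutated tumors and 8.39 to 8.93 in deleted tumors, and its part was not tested either.

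Among partners, 9 PRC1 subunits were higher and 3 lower in mutated tumors. Pcgf2 and Bmi1, alternative PCGF subunits of PRC1, differed in opposite directions. Pcgf2 was 9.75 to 10.16 in mutated tumors, against 8.56 to 9.03 in deleted tumors (1.19, adjusted p = 2.44e-08), and Bmi1 was 9.16 to 9.74 in mutated tumors, against 9.91 to 10.47 in deleted tumors (-0.62, adjusted p = 0.000104). Neither pair of groups overlapped, for which no share over all genes was counted. Pcgf2 kept its direction on deposited values (0.31).

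Of the opponents of Polycomb, 5 of 12 were higher and none lower, with Asxl3 at 1.19, Asxl2 at 0.75 and Kdm6b, a demethylase of H3 lysine 27, at 0.59. Of the readers and cofactors 3 were higher and 6 lower, with Zfp57, which guards imprinted methylation, at 0.88 and Trim28 at -0.55. Of the PRC2 partners none was higher, and Rbbp7 (-0.42) and Aebp2 (-0.41) were lower. For the demethylation partners 2 were higher and 4 lower, for the germline genes 2 and 6, and for the Hox genes 4 and 9. On deposited values Asxl3 (0.29) and Asxl2 (0.09) were higher and Kdm6b (-0.22) and Zfp57 (-0.05) lower.

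Within the 11 Rb/p53-deleted PBs the members varied unequally. Dnmt3a spanned 1.08, Tet2 1.03 and Tet1 0.94, whereas Dnmt3b spanned 0.24 and Suz12 0.25. Across these tumors Ezh2 correlated with Tet3 (Pearson r = 0.93, Spearman rho = 0.61), but r was 0.54 without PB11. Dnmt3a and Tet2 correlated at r = 0.74 (rho = 0.73), and r was 0.75 without PB11. Eed ran against Dnmt3b (r = -0.71, rho = -0.60; -0.62 without PB11). These are descriptions over 11 tumors, of which the PB11 array had a wider spread of deposited values than the others.

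Of all genes on the array, the 3 nearest to Ezh2 in pattern over these 11 tumors were Gm11201 (r = 0.973), Mki67 (0.971) and Bcl11b (0.965). Without PB11 their r was 0.79, 0.79 and 0.72. Mki67, the Ki-67 proliferation antigen, had a rho of 0.87. Ezh2 had r = 0.81 (rho = 0.62) with the mean of the mitotic genes, but -0.42 with that of the S-phase genes (0.18 without PB11). The mitotic r was not computed without PB11, which had the lowest value of both Ezh2 and the mitotic mean. For Uhrf1 the nearest were Man2b2 (r = 0.96), Pds5b (0.94) and Ccbe1 (0.93), and each stayed at or above 0.90 without PB11. For Dnmt3a they were Selenon (0.97), Azin2 (0.96) and Ago1 (0.96). For Dnmt1, Ap1s2 led at 0.91, for Tet2 Clcn2 at 0.97, for Tet3 Map3k7 at 0.96, for Tet1 Slc38a4 at 0.96, for Dnmt3b Zfp318 at 0.92, for Suz12 Zfp942 at 0.89 and for Eed Snord35b at 0.90. Without PB11 the r of Tet3 with Map3k7 was 0.73, and the others from Dnmt1 on lay at 0.865 to 0.916. All these genes were picked as the highest of 19938 genes.

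Rb loss in a Dicer1/p53-deleted background was compared on version 2.0 arrays, where the median member difference was 0.004, against -0.018 over all genes. No gene of 22180 passed an FDR of 0.05 with limma, so 0% were called higher and 0% lower, and 1941 genes had an unadjusted p under 0.05. Of the members, Dnmt1 alone had such a p (0.00267), and it had the largest difference.

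Dnmt1 was 9.32, 9.44 and 9.54 in Rb/Dicer1/p53-deleted PBs, against 8.86, 8.82 and 8.59 in Dicer1/p53-deleted PBs. The groups did not overlap, which held upward for 7.37% of all genes and downward for 7.42%. Dnmt1 was the only member of the 10 without overlap, which is close to the share over all genes. The difference was 0.68 (1.60-fold, SE 0.16, 95% interval 0.25 to 1.11) with an adjusted p of 0.439. PB12, the Rb/p53-deleted tumor on this array version, had 9.78, above all 6 Dicer1-deleted tumors.

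Uhrf1 was 8.46, 7.90 and 8.07 in Rb/Dicer1/p53-deleted PBs, against 7.79, 7.97 and 7.69 in Dicer1/p53-deleted PBs, and 8.38 in PB12. The difference of 0.33 had an interval of -0.20 to 0.86. Tet1 was 7.85, 7.30 and 7.44 with Rb deleted, against 6.92, 6.62 and 7.58 in Dicer1/p53-deleted PBs (0.49, interval -0.27 to 1.24), and 8.40 in PB12. Both genes overlapped between the groups.

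The PRC2 core differed little. Ezh2 was 10.46, 10.37 and 10.36 in Rb/Dicer1/p53-deleted PBs, against 10.59, 10.49 and 10.44 in Dicer1/p53-deleted PBs (-0.11, interval -0.50 to 0.28), and 10.71 in PB12. Suz12 differed by 0.07 (interval -0.43 to 0.58) and Eed by -0.13 (interval -0.63 to 0.37). Dnmt3b (-0.30, interval -0.79 to 0.19), Tet3 (-0.25, interval -0.81 to 0.30), Dnmt3a (-0.03) and Tet2 (0.03) also overlapped. Tet2 was 8.24 in PB12, below all 6 Dicer1-deleted tumors, which ranged from 8.48 to 9.52. PB12 has no replicate.

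**Figure D4:**
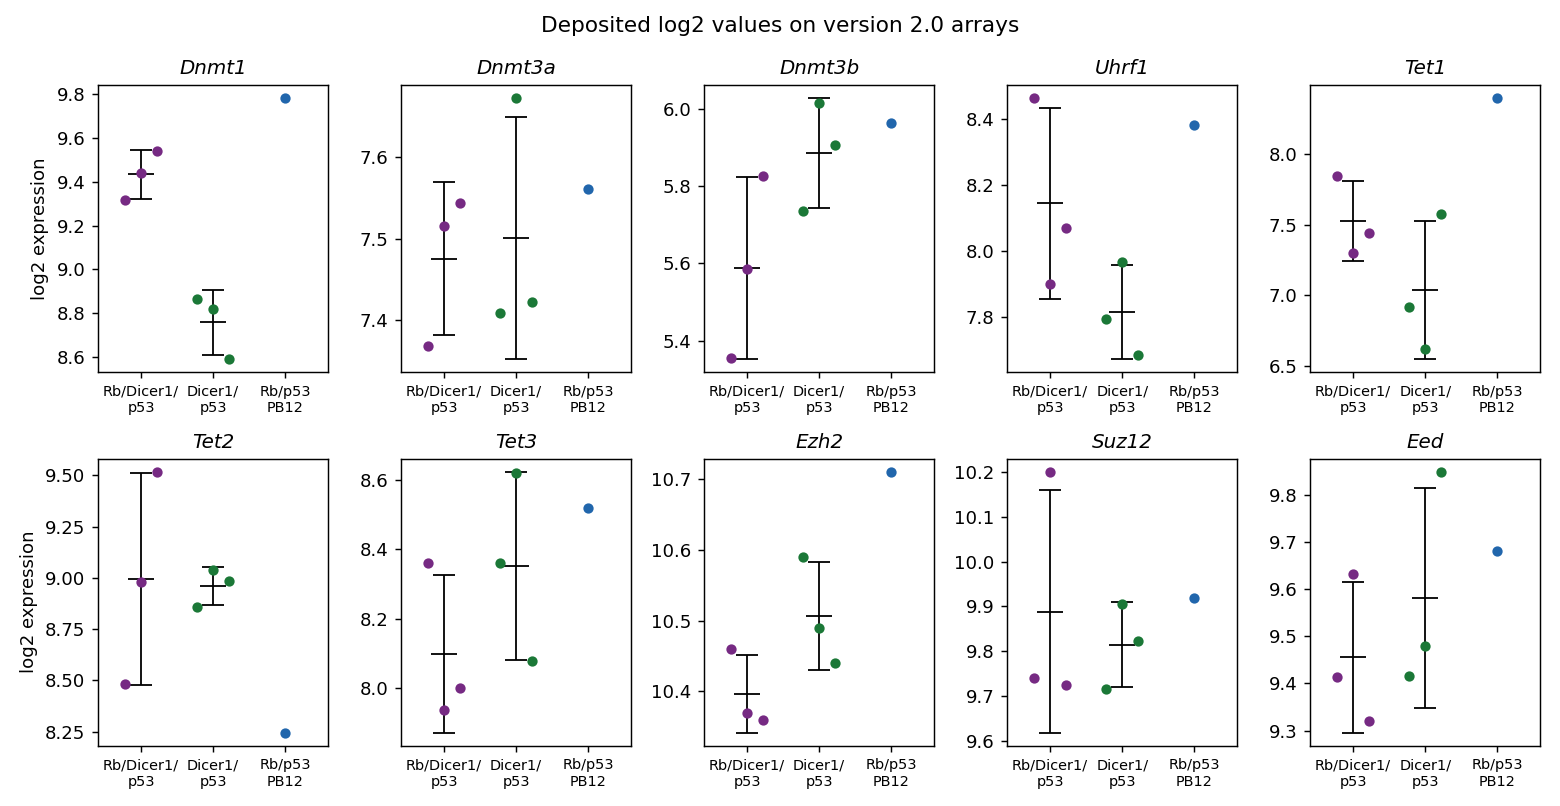
Deposited log2 expression (y axis, its own range in each panel) of the 10 members on version 2.0 arrays, with 1 point per sample and bars for mean ± SD, in Rb/Dicer1/p53-deleted PBs (n = 3), Dicer1/p53-deleted PBs (n = 3) and Rb/p53-deleted PB12 (n = 1, no error). Dnmt1 alone separates the first 2 groups, at 9.32 to 9.54 against 8.59 to 8.86, as 7.37% of all genes do upward and 7.42% downward.

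Beside Dnmt1, the mean of 11 S-phase genes was 9.10 to 9.23 in Rb/Dicer1/p53-deleted PBs and 8.66 to 8.96 in Dicer1/p53-deleted PBs, with a median difference of 0.45 and none of the genes called. Mcm4 had the smallest p, at 0.85 (adjusted p = 0.439). Mean mitotic levels overlapped, at 9.66 to 10.04 in Rb/Dicer1/p53-deleted PBs and 9.48 to 9.96 in Dicer1/p53-deleted PBs. No partner gene passed the threshold, and those with the smallest p were Uhrf2 (0.54) and Hells (0.53) among readers and cofactors, Rbbp7 (0.65) among PRC2 partners and Pcgf5 (0.97) among PRC1 subunits.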

How the data were processed

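RNA from 19 samples on version 1.0 and 7 on version 2.0 Affymetrix Mouse Gene ST arrays was used. The authors summarized each transcript cluster by RMA with Affymetrix Expression Console and deposited log2 values. Neither the program's version nor the arrays run together in RMA are given in the sources used here. The 1.0 table (35556 clusters) was quantile-normalized over its arrays, and the 2.0 table (41345 clusters) was used as deposited. Clusters with 1 gene symbol were updated through gene identifiers to GRCm38.p6, and the cluster with the highest mean stood for a gene. Groups came from the sample labels. Each comparison used the arrays of its 2 groups in limma 3.58.1 (R 4.3.3; lmFit, eBayes) with Benjamini-Hochberg adjustment over all named genes, at an FDR of 0.01 against cerebellum and 0.05 between tumors. The test was checked on simulated data. Promoter windows came from RefSeq. The number of arrays limits the precision. Array versions were not compared with each other. Shares of all genes without overlap were counted only for the Dicer1 groups.

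The members and gene lists were chosen with earlier results of these data known. Named were all members, per list and comparison up to 4 called genes of largest difference (if none was called, the 2 of smallest p), and the 3 genes nearest to each member in pattern. Zbtb38, Hoxc9, Lhx4, Aanat, Bap1, Kmt2c, Gfap and the figures for named genes in further comparisons lie outside that rule and were chosen after their values were seen. Alternatives were other scalings, cluster rules, a filter on dim genes, all groups in 1 fit, another variance prior, array set and replicate blocks, and leaving out samples. PB1 to PB10 were never left out.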

Additional observations from a re-analysis of the deposited data

How the results depend on the processing

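Of the 10 members, the deleted tumors against cerebellum kept 8 to 10 calls under other scalings, cluster rules, filters and priors. The same held without PB11 or any 1 cerebellum sample. Under the filter on dim genes 9 were called, because Dnmt3b was removed before the test. Its mean over the version 1.0 arrays was 7.64, below the median gene at 8.1. With PB11 and cerebellum as an array set 6 remained, and also 6 with that block on the deposited values, an alternative chosen after seeing the data, as was the block for the other gene lists. Mutated tumors against cerebellum had 8 calls and 7 to 9 without any 1 sample, but 5 on deposited values, where the signs of Dnmt3a (-0.32), Dnmt3b (-0.49), Tet3 (-0.068), Suz12 (-0.20) and Eed (-0.93) turned. That of Eed also turned, without a call, after median centring (-0.034) and with the mean of all clusters of a gene (-0.077). Mutated against deleted tumors had 8 calls, 5 after median centring and 5 to 8 without PB11 or 1 mutated tumor. On deposited values Dnmt3a (-0.60), Dnmt3b (-0.72), Tet1 (-0.35), Tet2 (-0.26) and Tet3 (-0.53) turned. The deposited median gene moved by -0.92 and -0.86 in these 2 comparisons, and the cause was not tested. With the mean of all clusters of a gene, Tet1 differed by 0.11 (adjusted p = 0.431) between mutated and deleted tumors. The Dicer1 groups had 0 calls under every alternative run, but the sign of Dnmt3a turned after median centring (0.0039), and without 1 sample Dnmt3a ran from -0.071 to 0.061, Tet2 from -0.23 to 0.29, Suz12 from -0.082 to 0.16 and Eed from -0.21 to 0.0082.

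Replicate numbers of the labels did not pair the samples, with correlations of same-numbered deviations from -0.21 to 0.29. With the replicate block, 8, 7, 3 and 0 members were called in the 4 comparisons, against 10, 8, 8 and 0 without it. Over all alternatives, member values kept direction and side of the threshold in 108 of 129, 133 of 149, 100 of 129 and 123 of 130 cases, in the order deleted and mutated tumors against cerebellum, mutated against deleted tumors, and the Dicer1 groups. The 3 cerebellum samples and the 3 tumors in each Dicer1 group limit every value that rests on them.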
